A study of Homo sapiens with 8 samples.

Results

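The genes described here were the matrix metalloproteinase genes that lie outside the chromosome 11 cluster, MMP2, MMP11, MMP14, MMP16 and MMP19, together with the inhibitor genes TIMP1, TIMP2, TIMP3 and RECK, and SYN1, whose counted span holds TIMP1. They were chosen by gene symbol, 10 rows of the 27945 in the count table, and all 10 passed the filter on low counts that left 12844 genes for testing. MMP11 passed it thinly, with 46 counts summed over the libraries, and MMP19 had 153.

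Matrix metalloproteinases are zinc enzymes that cut collagens and other proteins of the extracellular matrix, and fibroblasts are a main source of them. They are made as inactive precursors. MMP14, which is anchored in the cell membrane, opens the precursor of the secreted gelatinase MMP2, and TIMP2 can hold that precursor on MMP14 at the cell surface. The TIMP proteins block the active enzymes, each with its own range: TIMP1 is a weak inhibitor of membrane-type enzymes, TIMP3 stays bound to the matrix and also blocks enzymes of the ADAM family, and RECK is an inhibitor tethered to the cell surface. Several metalloproteinases belong to the secretory phenotype of senescent cells.

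Nascent transcription was read by fastGRO-seq, a run-on assay in which isolated nuclei extend RNA that polymerases have already begun and the labelled RNA is sequenced. The cells were IMR90, a line of human diploid lung fibroblasts, in 4 groups of 2 libraries. Control cells are labelled WT. The other 3 groups were senescent after induction of ER:RAS, a fusion of the estrogen receptor with the oncogene H-RASG12V that 4-hydroxytamoxifen switches on (100 nM by the study's methods), and carried shcontrol, shMETTL3 or shMETTL14. Those methods give harvest on day 6 for checking RAS and senescence markers, and state no day for the fastGRO-seq cells. METTL3 and METTL14 form the methyltransferase complex that places N6-methyladenosine on RNA. No shRNA is labelled for the control cells, so senescence and carrying an shRNA cannot be told apart in any comparison with them. The study describes its fastGRO-seq experiments as biologically independent. The p-values rest on the spread between the 2 libraries within each group, pooled over all 4 groups and shared among genes. The labels give no batch. These are bulk samples, in which fewer cells transcribing a gene and less transcription per cell cannot be told apart.

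Each library held 14897360 to 20306299 counts, of which 86.2% to 92.5% lay in 21 ribosomal RNA rows, which left 1513930 to 2048475 counts for all other genes. CDKN1A, the gene of the cell-cycle inhibitor p21, had a log2 fold change of 1.12 (SE 0.15) between senescent shControl and control cells, and LMNB1, the gene of lamin B1, one of -2.28 (SE 0.35), while CCNA2, the gene of cyclin A2, at -0.82 (SE 0.55, adjusted p = 0.3), did not pass the edgeR test. METTL3, the target of shMETTL3, had 77 and 47 counts in senescent shControl cells and 16 and 19 after shMETTL3, a log2 fold change of -2.04 (SE 0.31, edgeR quasi-likelihood test, adjusted p = 1.8e-05). METTL14 had 24 and 28 counts in shControl cells and 18 and 14 after shMETTL14, a log2 fold change of -0.86 (SE 0.34, adjusted p = 0.076) that did not pass the test. These counts are of nascent RNA and do not measure the mature RNA or protein left after knockdown. For both knockdowns the study cites a western blot. All 10 fibroblast markers examined had at least 10 counts in every library, while 1 of 6 epithelial, 1 of 4 immune and none of 4 endothelial and 5 neuronal markers did. The summed level of the fibroblast markers was 1728 to 1853 CPM (counts scaled to library size) in control, 1189 to 1282 in shControl, 1377 to 1632 in shMETTL3 and 792 to 935 in shMETTL14 libraries. Its part in the results below was not tested.

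Reads of TIMP1 and TIMP3 were also counted for the synapsin genes around them. TIMP1 (NM_003254, chrX:47441690-47446190 in hg19, plus strand) lies wholly within intron 5 of SYN1 (NM_133499, chrX:47431300-47479256, minus strand), a neuronal gene for a protein of synaptic vesicles. SYN1 had 322 and 332 counts in control, 1612 and 1564 in shControl, 1199 and 895 in shMETTL3 and 2825 and 2317 in shMETTL14 libraries. TIMP1 had 318 and 330, 1607 and 1562, 1195 and 893, and 2820 and 2311 counts in the same libraries. The 43.456 kb of the 47956-base SYN1 span that lie outside TIMP1 therefore held 2 to 6 counts per library, and TIMP1 took 98.8% to 99.9% of the counts of SYN1. The 2 genes lie on opposite strands, so the counts do not keep the strands apart, and every value of the SYN1 row below is a value of TIMP1.

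The same held for TIMP3 (NM_000362, chr22:33196802-33259028, plus strand), which lies wholly within intron 6 of SYN3 on the opposite strand. SYN3 differed from TIMP3 by 2 to 8 counts per library, and TIMP3 took 98.5% to 99.7% of its counts. The third inhibitor had no such host. TIMP2 (NM_003255, chr17:76849059-76921472, minus strand) itself holds CEP295NL within intron 1 on its own strand, and the reads over CEP295NL were 1.51% to 3.87% of the counts of TIMP2. MMP19 shares 817 bases, 10.8% of its counted span, with TMEM198B on the opposite strand, and reads there cannot be assigned to either gene.

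**Figure D1:**
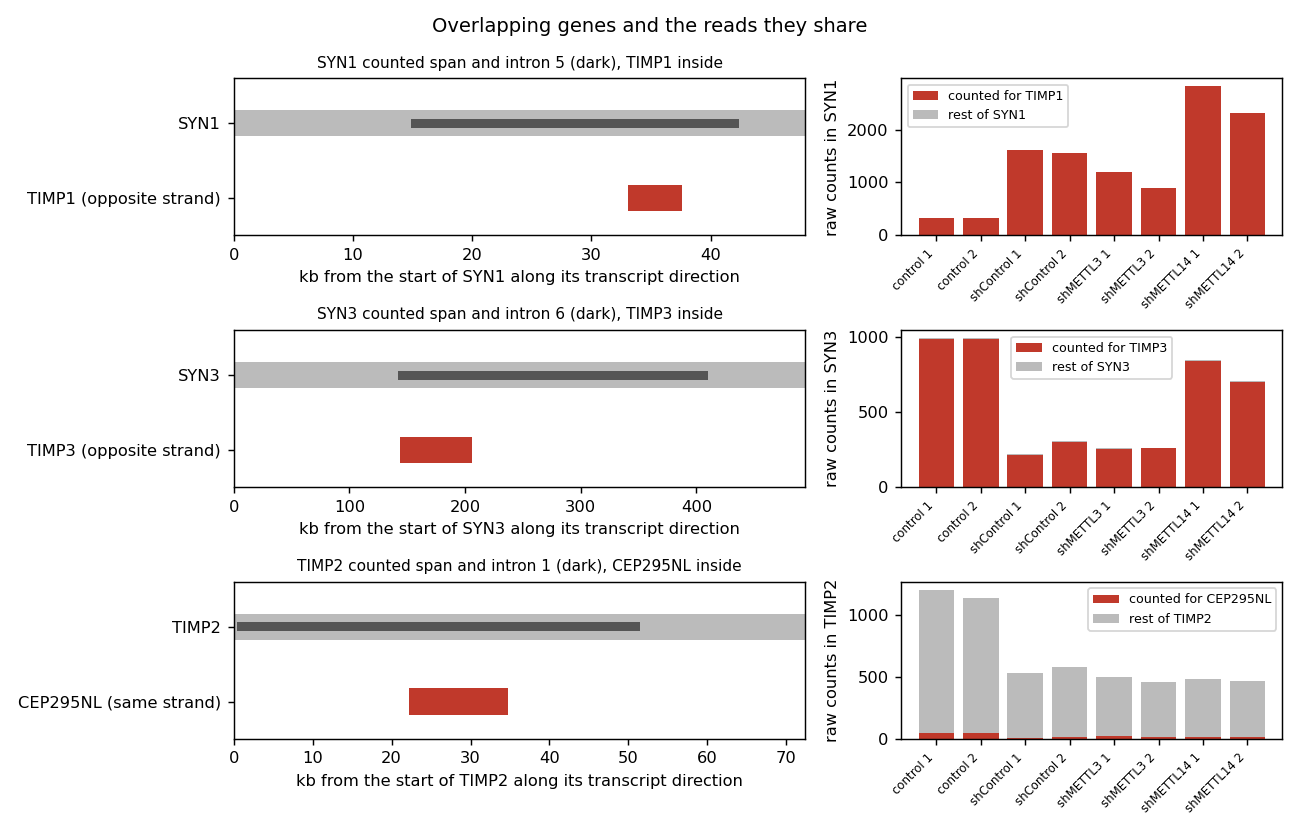
Left, counted spans of SYN1, SYN3 and TIMP2 in kb from the start of each gene (light bar), the intron that holds the inner gene (dark bar) and the inner gene (red). Right, raw counts of each outer gene in the 8 libraries, split into those also counted for the inner gene (red) and the rest (grey). TIMP1 and TIMP3 fill the bars of SYN1 and SYN3, with 2 to 6 and 2 to 8 counts left over, whereas CEP295NL takes at most 3.87% of TIMP2.

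Per length, the highest levels among these genes were those of TIMP1 and MMP14. Levels are given in RPKM (reads per length of the counted gene body and per library size, the latter scaled by TMM), as mean ± SD of 2 libraries. The level of TIMP1 was 3.53 ± 0.05 RPKM in control, 22.5 ± 1.41 in shControl, 12.9 ± 3.32 in shMETTL3 and 32.6 ± 3.37 in shMETTL14 cells. The level of MMP14 was 2.96 ± 0.05, 9.22 ± 0.67, 9.23 ± 1.63 and 4.44 ± 0.73 RPKM in the same order. TIMP1 was first and MMP14 next in every group, and TIMP1 lay above MMP14 in each library. In shMETTL3 cells the mean ± SD ranges of the 2 genes overlapped. The group means of MMP2 were 0.688 to 1.45 RPKM, those of TIMP2 0.362 to 0.792 and those of TIMP3 0.227 to 0.777. MMP2, TIMP2 and TIMP3 followed in this order in control, shControl and shMETTL3 cells, while in shMETTL14 cells TIMP3, at 0.709 ± 0.064 RPKM, lay above TIMP2 at 0.374 ± 0.003. In control cells TIMP2 and TIMP3 did not differ beyond their spread, and in shMETTL14 cells TIMP3 and MMP2 did not. The group means of MMP19, RECK, MMP16 and MMP11 all stayed below 0.2 RPKM, and the order among these 4 changed from group to group. TIMP1 is also the shortest of these genes, with a counted span of 4500 bases, against 290257 bases for MMP16.

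**Figure D2:**
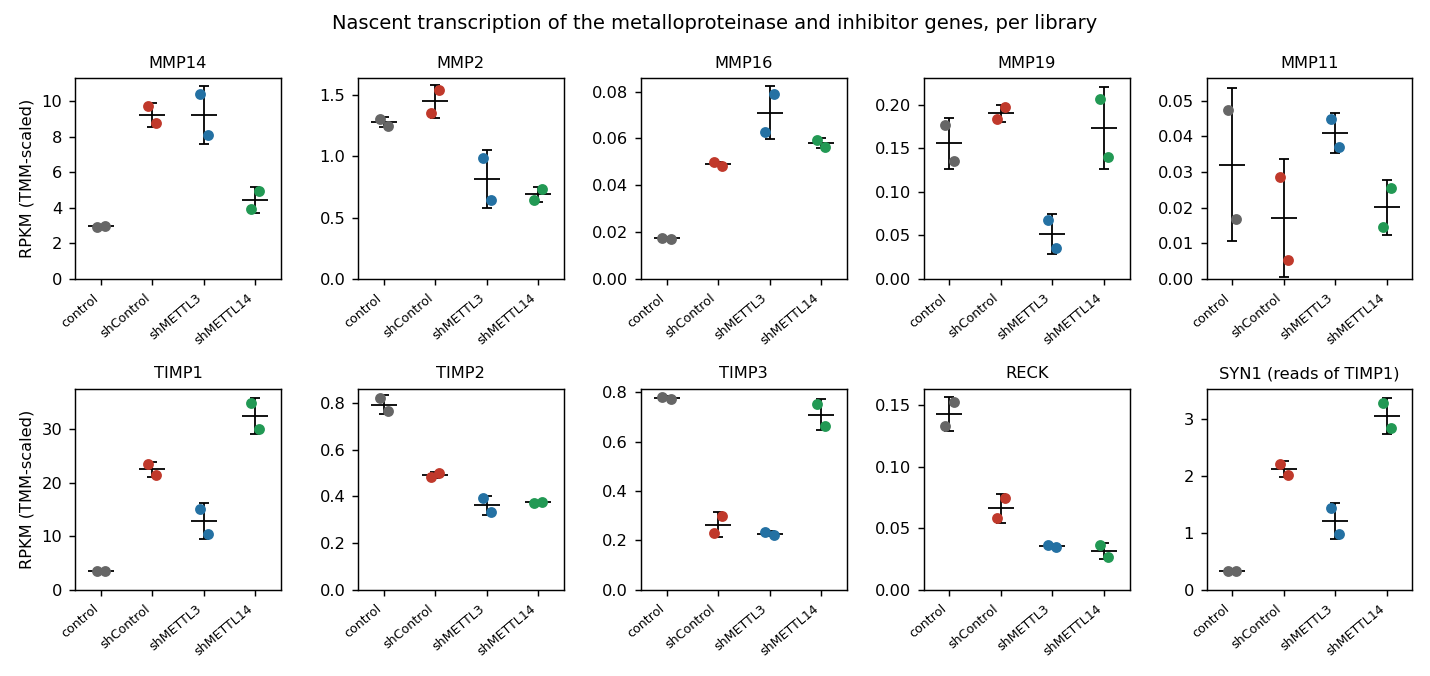
Level of each gene in RPKM (vertical axis, separate scale for each gene) in the 2 libraries of each group (points), with the group mean and SD (bars). TIMP1 and MMP14 rise from control to shControl, TIMP2, TIMP3 and RECK fall, TIMP3 in shMETTL14 libraries is back near the control level, and the SYN1 panel repeats TIMP1.

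The first comparison asked how transcription of these genes differed between senescent shControl and control cells. TIMP1, MMP14 and MMP16 rose, TIMP2, TIMP3 and RECK fell, and MMP2, MMP19 and MMP11 did not pass the test. With the SYN1 row, 4 of 10 rows were higher and 3 were lower (adjusted p below 0.05, edgeR), 7 called in all, where 26.6% of all 12844 genes were called in either direction. Those were 1711 genes higher and 1702 lower, and with library size alone as the scale it would be 752 and 5007, because the median gene then moved to -0.53 on the log2 scale. The median log2 fold change of the 10 rows was 0.23, or 0.18 without SYN1, which repeats TIMP1. That of all genes tested was -0.03.

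Among the enzymes, MMP14 (NM_004995, chr14:23305742-23316808, plus strand) had 654 and 682 counts in control and 1627 and 1559 in shControl libraries. It was 3.12-fold higher, a log2 fold change of 1.64 (SE 0.15, adjusted p = 2.5e-09), and the groups did not overlap. MMP16 (NM_005941, chr8:89049460-89339717, minus strand), another membrane-type metalloproteinase, had 104 and 101 counts in control and 219 and 226 in shControl libraries. It was 2.83-fold higher, with a log2 fold change of 1.50 (SE 0.16, adjusted p = 3.4e-08), from a level of 0.017 RPKM in control cells. MMP2 (NM_001302508, chr16:55512742-55540603, plus strand) had 735 and 716 counts in control and 570 and 692 in shControl libraries. Its log2 fold change was 0.18 (SE 0.15, adjusted p = 0.43), so no difference beyond the spread was detected. MMP19 (chr12:56229214-56236767, minus strand), a secreted metalloproteinase, had 27 and 21 against 21 and 24 counts, a log2 fold change of 0.29 (SE 0.38, adjusted p = 0.63). MMP11 (chr22:24115006-24126503, plus strand), also called stromelysin-3, had 11 and 4 against 5 and 1 counts. At that depth its log2 fold change of -0.91 had an SE of 0.81 (adjusted p = 0.45), and no difference was detectable.

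The inhibitors moved in both directions. TIMP1 rose from 318 and 330 counts to 1607 and 1562, 6.39-fold, a log2 fold change of 2.68 (SE 0.17, adjusted p = 8.8e-13). TIMP3 fell from 985 and 990 counts to 215 and 300, 2.94-fold, a log2 fold change of -1.56 (SE 0.15, adjusted p = 3.1e-09). TIMP2 had 1204 and 1138 counts in control and 530 and 582 in shControl libraries, a log2 fold change of -0.69 (SE 0.13, adjusted p = 0.00022). Without the counts of CEP295NL that value was -0.67, and with library size alone -1.19. RECK (NM_001316345, chr9:36036910-36124452, plus strand) had 236 and 275 counts in control and 77 and 105 in shControl libraries, a log2 fold change of -1.11 (SE 0.18, adjusted p = 2.4e-05). For all 4 inhibitors, each already called by the test, the control and shControl libraries did not overlap. The share of all genes separated in this way is not given, so this adds no support of its own. Fibroblast markers moved beside the 3 inhibitors that fell: 8 of 10 were lower and 1 higher in this comparison. CD68, the 1 immune marker tested, was higher by 2.05 (adjusted p = 2.6e-05), and SNAP25, the 1 neuronal marker tested, which passed the filter only through the control libraries, was at -1.41 (adjusted p = 0.03). Neither had over 60 counts in any library, and the part of these markers in the results was not tested.

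Ratios within a library need no scaling between libraries. TIMP1 made up 69.2% ± 0.95 of the summed counts per kb of TIMP1, TIMP2 and TIMP3 in control cells and 96.7% ± 0.45 in shControl cells (SD, n = 2). Over the same groups TIMP2 went from 15.5% ± 0.81 to 2.11% ± 0.17, and TIMP3 from 15.3% ± 0.14 to 1.14% ± 0.28. These shares sum to the same whole, so a rise of TIMP1 lowers the other shares by itself. Per kb, MMP14 exceeded TIMP2, its partner in opening the precursor of MMP2, 3.55-fold and 3.92-fold in the control libraries and 20.1-fold and 17.5-fold in the shControl libraries. No test was run on these ratios, which stand as descriptions.

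**Figure D3:**
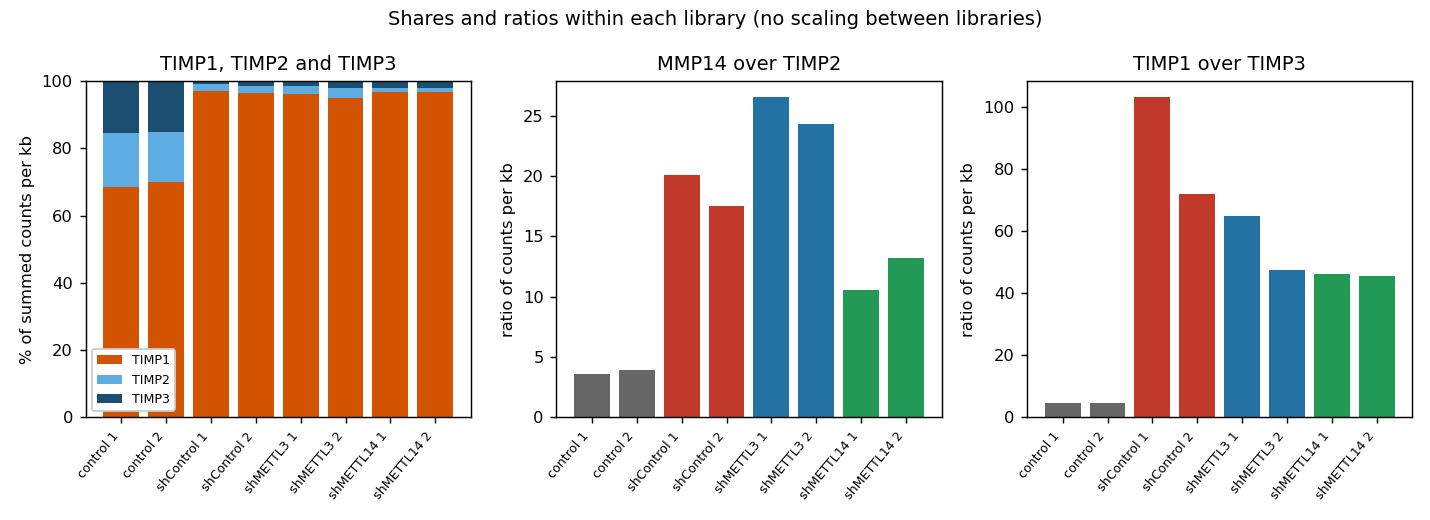
Left, share of TIMP1, TIMP2 and TIMP3 in their summed counts per kb (%) in each library. Middle and right, ratio of counts per kb of MMP14 to TIMP2 and of TIMP1 to TIMP3 in each library. TIMP1 holds 69.2% in control cells and at least 95.5% as the mean of every senescent group, and MMP14 over TIMP2 is highest in the shMETTL3 libraries, at 26.5 and 24.3.

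Of the 10 genes, 6 were found in the RefSeq promoter table used here, among them TIMP1, MMP14, TIMP3 and RECK. The 250 bases before the RefSeq transcription start of these 4 are shown, 5′ to 3′ on the gene's own strand, because TIMP1 and MMP14 rose in senescent cells while TIMP3 and RECK fell. The counted gene span starts at -889 bases from this RefSeq start for TIMP3, at -145 for TIMP1 and at -52 for MMP14, so the whole TIMP3 window, part of the TIMP1 window with its TGAGTAA, and the end of the MMP14 window lie within the counted spans. The letters were read from the RefSeq table (GRCh38.p14) and each occurred once, letter for letter, in GRCh37 (hg19), at chrX:47441585-47441834 for TIMP1, chr14:23305544-23305793 for MMP14, chr22:33197441-33197690 for TIMP3 and chr9:36036660-36036909 for RECK. Capitals mark matches, on either strand, to the GC box GGGCGG bound by factors of the Sp family and to TGAGTAA, a variant of the AP-1 site.
TIMP1: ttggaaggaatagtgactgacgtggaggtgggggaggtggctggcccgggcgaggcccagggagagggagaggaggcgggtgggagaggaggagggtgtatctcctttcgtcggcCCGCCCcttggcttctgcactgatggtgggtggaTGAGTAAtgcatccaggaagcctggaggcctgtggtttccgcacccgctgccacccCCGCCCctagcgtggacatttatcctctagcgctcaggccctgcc
MMP14: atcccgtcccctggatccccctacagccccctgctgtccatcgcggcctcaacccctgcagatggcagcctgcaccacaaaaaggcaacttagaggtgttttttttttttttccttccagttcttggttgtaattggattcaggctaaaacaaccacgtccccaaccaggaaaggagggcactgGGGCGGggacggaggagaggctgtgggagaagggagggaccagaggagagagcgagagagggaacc
TIMP3: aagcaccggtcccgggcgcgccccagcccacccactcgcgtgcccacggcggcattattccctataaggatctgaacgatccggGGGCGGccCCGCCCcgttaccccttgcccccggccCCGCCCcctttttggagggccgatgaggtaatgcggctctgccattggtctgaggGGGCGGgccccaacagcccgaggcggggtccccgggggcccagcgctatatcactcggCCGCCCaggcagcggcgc
RECK: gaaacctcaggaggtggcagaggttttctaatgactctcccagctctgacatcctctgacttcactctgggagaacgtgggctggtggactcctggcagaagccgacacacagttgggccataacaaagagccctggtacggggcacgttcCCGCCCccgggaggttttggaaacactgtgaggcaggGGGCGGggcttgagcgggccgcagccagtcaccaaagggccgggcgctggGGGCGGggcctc

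The TIMP1 promoter held TGAGTAA once, 101 bases before the start, a match found in 2.25% of the 27305 RefSeq promoters of the same length, and it held GGGCGG at 2 places. GGGCGG stood at 1 place in MMP14, at 5 in TIMP3 and at 3 in RECK, and 42.3% of all promoters held it. The AP-1 site TGAGTCA, present in 4.16% of all promoters, and TATAAA, present in 11.1%, were in none of these 4 windows. The matches shown do not overlap one another, and a match describes the letters, not binding.

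The next comparison asked what shMETTL3 changed in senescent cells. MMP2, MMP19, TIMP1, TIMP2 and RECK were lower than in shControl cells, MMP16 was higher, and MMP14, TIMP3 and MMP11 did not pass the test. Counting SYN1, 6 of 10 rows were lower and 1 was higher, where 23.4% of all genes tested were called in either direction, 1434 lower and 1573 higher. With library size alone these would be 353 and 5285, with the median gene at 0.58. The median log2 fold change was -0.63 over the 10 rows, -0.44 without SYN1 and -0.03 over all genes tested.

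MMP2 fell from 570 and 692 counts to 478 and 340, 1.78-fold, a log2 fold change of -0.83 (SE 0.16, adjusted p = 0.00031). TIMP1 fell from 1607 and 1562 counts to 1195 and 893, 1.76-fold, a log2 fold change of -0.81 (SE 0.15, adjusted p = 0.00029). RECK had 56 and 58 counts after shMETTL3 against 77 and 105, a log2 fold change of -0.89 (SE 0.21, adjusted p = 0.0029). TIMP2 had 495 and 455 counts against 530 and 582, a log2 fold change of -0.44 (SE 0.14, adjusted p = 0.019). MMP19 had 9 and 5 counts against 21 and 24, a log2 fold change of -1.88 (SE 0.47, adjusted p = 0.0042). It had the largest fold and the fewest counts among the 5 genes that fell. In CPM, the shControl and shMETTL3 libraries did not overlap for any of these 5 genes. They were picked as called lower, and the share of all genes so separated is not given, so this adds no support.

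MMP16 was the 1 gene that rose, from 219 and 226 counts to 319 and 433, a log2 fold change of 0.53 (SE 0.14, adjusted p = 0.0067). MMP14 had 2008 and 1688 counts after shMETTL3 against 1627 and 1559, and its log2 fold change was 0.0015 (SE 0.15, adjusted p = 1). The shMETTL3 libraries of MMP14, at 115 and 89.4 CPM, lay on either side of the shControl libraries at 107 and 96.8 CPM. TIMP3 had 255 and 259 counts against 215 and 300, a log2 fold change of -0.21 (SE 0.15, adjusted p = 0.34). MMP11 had 9 and 8 counts against 5 and 1, a log2 fold change of 1.25 (SE 0.79, adjusted p = 0.27).

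Ribosomal RNA rows, which library size includes, made up 92.5% and 92.1% of the counts in shControl and 88.4% and 86.2% in shMETTL3 libraries. The part of this share was not tested. All 5 falls after shMETTL3 were still called by DESeq2, with the upper quartile and without ribosomal RNA rows. With library size alone 4 of the 5 were not called, and that of MMP19 still was (-1.28, adjusted p = 0.026). On that scale MMP2 was at -0.23 (adjusted p = 0.28), TIMP1 at -0.21 (0.29), RECK at -0.28 (0.38) and TIMP2 at 0.17 (0.44), these 4 below the median gene at 0.58, while MMP14 rose to 0.61 (adjusted p = 0.00076) and MMP16 to 1.16. Leaving out 1 library ended 3 calls: MMP16 without shControl replicate 1 (adjusted p = 0.061), shControl replicate 2 (0.096) or shMETTL3 replicate 2 (0.34, adjusted p = 0.11), TIMP2 without the same libraries (0.093, 0.14 and 0.11), and RECK without shControl replicate 2 (0.092). Within each library, MMP14 over MMP2 per kb was 7.19 and 5.67 in shControl and 10.6 and 12.5 in shMETTL3 cells, and TIMP1 made up 95.5% ± 0.74 of the TIMP counts per kb after shMETTL3. The shMETTL3 libraries also stood furthest apart as a pair, with a chi-square per degree of freedom of 5.13 over genes, against 1.53 to 2.52 in the other groups.

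The same question for shMETTL14 gave another pattern. TIMP3 and TIMP1 were higher than in shControl cells, MMP14, MMP2, RECK and TIMP2 were lower, and MMP16, MMP19 and MMP11 did not pass the test. With SYN1, 3 of 10 rows were higher and 4 were lower, where 21.2% of all genes were called in either direction. Those were 1175 genes higher and 1545 lower, and with library size alone 3163 and 710, with the median gene at 0.35. The median of the 10 rows was 0.06, and without SYN1, which counts the reads of TIMP1 again, it was -0.13.

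TIMP3 rose from 215 and 300 counts to 841 and 703, 2.68-fold, a log2 fold change of 1.42 (SE 0.15, adjusted p = 4.6e-08). Its level of 0.709 ± 0.064 RPKM in shMETTL14 cells stood beside 0.777 ± 0.006 in control cells. TIMP1 rose further, from 1607 and 1562 to 2820 and 2311 counts, a log2 fold change of 0.53 (SE 0.15, adjusted p = 0.012). That call was lost without shControl replicate 1 (adjusted p = 0.069), shControl replicate 2 (0.18) or shMETTL14 replicate 1 (0.14), and with library size alone the value was 0.89.

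MMP14 fell from 1627 and 1559 counts to 780 and 934, 2.08-fold, a log2 fold change of -1.05 (SE 0.15, adjusted p = 7.2e-06). MMP2 fell from 570 and 692 counts to 321 and 348, 2.10-fold, a log2 fold change of -1.07 (SE 0.16, adjusted p = 1.5e-05). RECK had 57 and 40 counts against 77 and 105, a log2 fold change of -1.07 (SE 0.22, adjusted p = 0.00069). TIMP2 had 483 and 464 counts against 530 and 582, a log2 fold change of -0.39 (SE 0.14, adjusted p = 0.04), and this call was lost by DESeq2 (0.071), with library size alone (0.88), with the upper quartile (0.054), without a filter on low counts (0.055) and without any 1 library of the control, shControl or shMETTL14 groups (0.068 to 0.22). Fibroblast markers fell beside MMP14 and MMP2, with 7 of 10 lower and 3 not called after shMETTL14, whereas 2 were lower, 2 higher and 6 not called after shMETTL3. CD68 was lower after shMETTL3, beside TIMP1, at -0.84 (adjusted p = 0.04), and was not called after shMETTL14 (-0.37, adjusted p = 0.39). The part of these markers was not tested.

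MMP16 had 310 and 279 counts after shMETTL14, a log2 fold change of 0.24 (SE 0.14, adjusted p = 0.25), and it was called higher with library size alone (0.60, adjusted p = 0.012). MMP19 had 28 and 18 counts, a log2 fold change of -0.13 (SE 0.38, adjusted p = 0.85), and MMP11 had 3 and 5, a log2 fold change of 0.24 (SE 0.90, adjusted p = 0.89).

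**Figure D4:**
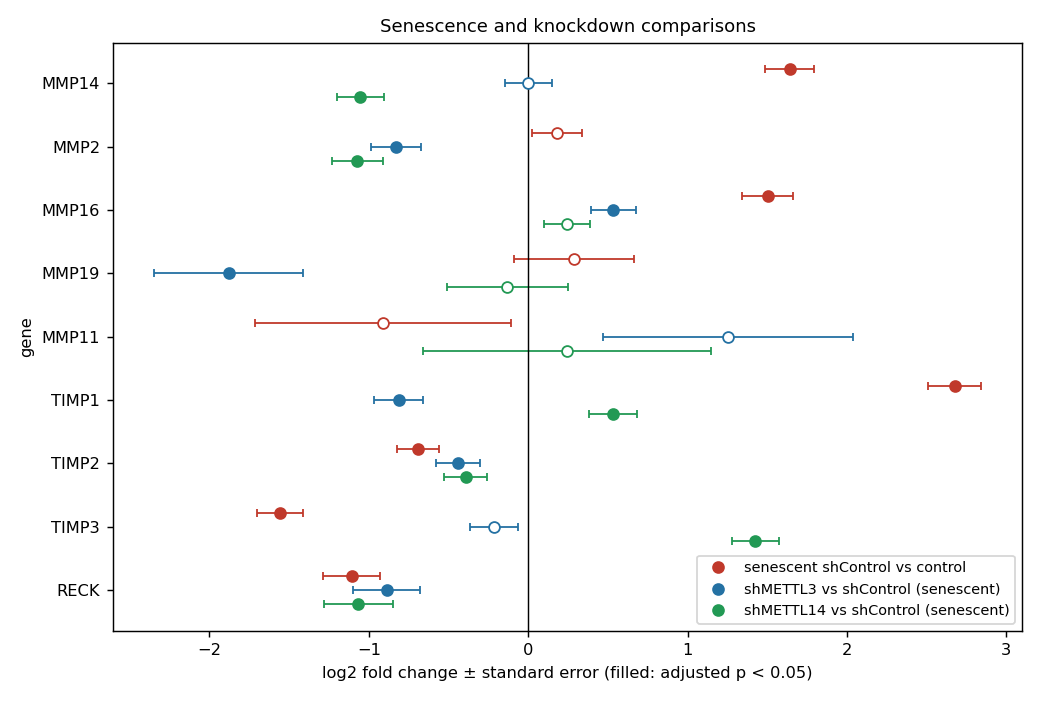
Log2 fold change (horizontal axis) ± standard error of 9 genes for senescent shControl against control (red), shMETTL3 against shControl (blue) and shMETTL14 against shControl (green), with filled points where the adjusted p was below 0.05. MMP2, TIMP2 and RECK lie left of 0 in both knockdowns, MMP14 lies left of 0 with shMETTL14 and at 0.0015 with shMETTL3, and TIMP1 and TIMP3 lie right of 0 with shMETTL14.

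The knockdowns were then compared with each other directly, since both comparisons above use the same shControl libraries. TIMP1, TIMP3 and MMP19 were higher and MMP14 was lower in shMETTL14 than in shMETTL3 cells. With SYN1, 4 of 10 rows were higher and 1 was lower, where 35.2% of all genes were called in either direction. Those were 2118 genes higher and 2399 lower, and 1177 and 3486 with library size alone, with the median gene at -0.25. TIMP3 differed by 1.64 on the log2 scale (SE 0.15, adjusted p = 4.6e-09), with 841 and 703 counts against 255 and 259. TIMP1 differed by 1.34 (SE 0.15, adjusted p = 1.7e-07), with 2820 and 2311 counts against 1195 and 893. MMP14 differed by -1.05 (SE 0.15, adjusted p = 3.7e-06), with 780 and 934 counts against 2008 and 1688. MMP19, at 28 and 18 against 9 and 5 counts, differed by 1.75 (SE 0.47, adjusted p = 0.0046), and this call was lost without shMETTL14 replicate 1 (0.1). For MMP2, TIMP2 and RECK, each called lower in both comparisons with shControl, the differences were -0.24 (SE 0.16, adjusted p = 0.26), 0.05 (SE 0.14, 0.81) and -0.18 (SE 0.23, 0.58). MMP16 differed by -0.29 (SE 0.14, adjusted p = 0.1) and MMP11 by -1.01 (SE 0.74, 0.3). MMP2 and MMP16 were called lower in shMETTL14 cells with library size alone (-0.49 and -0.56, adjusted p = 0.023 and 0.012), and when 1 shMETTL3 library was left out, MMP2 without replicate 2 (-0.50, 0.014) and MMP16 without replicate 1 (-0.43, 0.012). Cell type markers moved in this comparison as well: 6 of 10 fibroblast markers were lower and 1 higher, and both epithelial markers tested, neighbours whose counted spans overlap at their ends, were higher, KRT8 by 1.38 (adjusted p = 0.014) and KRT18 by 1.63 (adjusted p = 0.0014). The 6 epithelial markers summed to 1.22 to 1.32 CPM in shMETTL3 and 3.41 to 4.35 CPM in shMETTL14 libraries, with at most 43 counts for any of them in a library, and the part of these markers was not tested.

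The summed enzymes against the summed inhibitors give this contrast in each library. Counts per kb of the 5 metalloproteinases over those of the 3 TIMP genes were 0.871 ± 0.008 in control, 0.469 ± 0.004 in shControl, 0.766 ± 0.052 in shMETTL3 and 0.162 ± 0.039 in shMETTL14 cells (SD, n = 2). MMP14 made up 66.6% to 90.5% of the enzyme sum and TIMP1 69.2% to 96.8% of the inhibitor sum as group means, so the ratio follows these genes above all. MMP14 over TIMP2 was 26.5 and 24.3 in the shMETTL3 libraries and 10.6 and 13.2 in the shMETTL14 libraries.

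Each knockdown group was also set against the control cells, which the 3 comparisons share. In shMETTL3 cells 4 of 10 rows were higher and 5 lower than in control cells, where 40.2% of all genes were called in either direction. In shMETTL14 cells 4 were higher and 3 lower, where again 40.2% of all genes were called, 2531 higher and 2636 lower, against 1826 and 3078 with library size alone. TIMP1 stood 3.64-fold above control in shMETTL3 cells and 9.23-fold above it in shMETTL14 cells, with log2 fold changes of 1.86 and 3.21 beside 2.68 in shControl cells. MMP14 was at 1.64 (SE 0.15) in shMETTL3 cells and at 0.59 (SE 0.15, adjusted p = 0.0027) in shMETTL14 cells. MMP16 was at 2.04 and 1.74, the highest fold over control among the 5 metalloproteinase genes outside the cluster in both knockdown groups. Of the 10 fibroblast markers, 7 were lower and 1 higher than control in shMETTL3 cells, and 8 lower and 1 higher in shMETTL14 cells, with medians of -1.30 and -2.06. CD68 was higher in both (1.21 and 1.68) and SNAP25 lower in both (-2.29 and -1.76), while KRT8 was lower in shMETTL3 cells (-1.33, adjusted p = 0.014) and KRT18 higher in shMETTL14 cells (0.89, adjusted p = 0.037). The part of these markers was not tested.

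Among the genes below control, RECK was at -1.99 in shMETTL3 and -2.17 in shMETTL14 cells, that is 3.98-fold and 4.51-fold lower, and TIMP2 at -1.13 and -1.08. TIMP3 was at -1.77 (SE 0.15, adjusted p = 1.5e-10) in shMETTL3 cells and at -0.13 (SE 0.14, adjusted p = 0.47) in shMETTL14 cells. MMP2, which did not pass the test in shControl cells, was at -0.65 (SE 0.16, adjusted p = 0.0015) in shMETTL3 cells, with -0.98 and -0.38 (adjusted p = 0.047) without shMETTL3 replicate 1 or 2, and at -0.89 (SE 0.16, adjusted p = 5.5e-05) in shMETTL14 cells. MMP19 was at -1.59 (SE 0.47, adjusted p = 0.0076) in shMETTL3 cells, a call lost by DESeq2 (0.074) and without control replicate 1 (0.073) or shMETTL3 replicate 2 (0.075), and at 0.16 (SE 0.38, 0.77) in shMETTL14 cells. MMP11 was at 0.34 (SE 0.65, adjusted p = 0.71) and -0.67 (SE 0.76, 0.51).

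**Figure D5:**
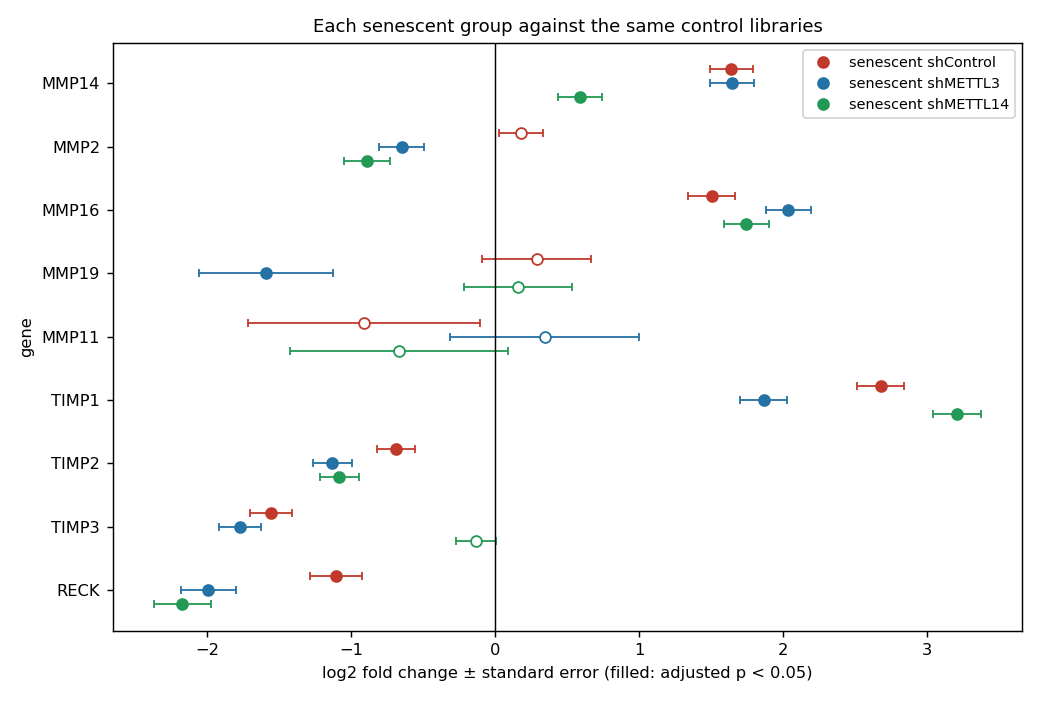
Log2 fold change (horizontal axis) ± standard error of 9 genes in each senescent group against the same 2 control libraries, with filled points where the adjusted p was below 0.05. RECK and TIMP2 lie left of 0 in all 3 groups, TIMP1, MMP14 and MMP16 right of 0 in all 3, and TIMP3 in shMETTL14 cells lies at -0.13.

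Other genes of the pathway were taken from lists. Of 11 further MMP and TIMP genes outside the cluster, 3 were tested (MMP15, MMP17 and MMP24), and none was called in any of the 6 comparisons by edgeR or DESeq2, with 1 at an unadjusted p below 0.05 in edgeR, in shMETTL14 against shMETTL3 cells. Of 9 genes for activation, induction and clearance, 8 were tested. In senescent shControl cells 3 of the 8 rose and 5 did not pass the test, where 26.6% of all genes tested were called: FURIN, a convertase that opens precursors of membrane-type metalloproteinases, by 0.81 (SE 0.23, adjusted p = 0.0092), BSG, a membrane protein that induces metalloproteinases, by 1.20 (SE 0.15), and TFPI2, a serine protease inhibitor of the matrix, by 4.58 (SE 0.17) on the log2 scale. DESeq2 called BSG and TFPI2 but not FURIN. After shMETTL3, 4 of the 8 fell and 4 did not pass the test, where 23.4% of all genes were called: FURIN to -1.09 (SE 0.24), BSG to -0.63 (SE 0.15), TFPI2 to -0.65 (SE 0.14) and LRP1, the receptor that takes up metalloproteinase and inhibitor complexes, to -0.49 (SE 0.16). After shMETTL14, TFPI2 rose by 0.42 (SE 0.14, adjusted p = 0.029) and LRP1 fell to -0.80 (SE 0.16, adjusted p = 0.00065), while the other 6 did not pass the test and 21.2% of all genes were called.

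TIMP3 and RECK also act on enzymes of the ADAM and ADAMTS families, and 5 of their genes were tested. Of these, 2 of 5 were called in senescent shControl cells, 1 after shMETTL3 and 3 after shMETTL14, beside the 26.6%, 23.4% and 21.2% of all genes called. In senescent shControl cells ADAMTS1 fell to -0.93 (SE 0.14, adjusted p = 7.1e-06) and ADAM10, a sheddase, to -0.41 (SE 0.14, adjusted p = 0.03), and 3 did not pass the test. DESeq2 called the fall of ADAMTS1 but not that of ADAM10. ADAM17, the sheddase of tumour necrosis factor that TIMP3 blocks, rose by 0.56 (SE 0.16, adjusted p = 0.0097) after shMETTL3 and by 0.65 (SE 0.16, adjusted p = 0.0035) after shMETTL14, of which DESeq2 called the second. After shMETTL14, ADAM10 fell to -1.12 (SE 0.15, adjusted p = 2.7e-06) and ADAMTS5, an aggrecanase with a mean under 50 counts that is named here after its values were seen, fell to -2.37 (SE 0.38). For comparison, 4 of 9 metalloproteinase genes of the chromosome 11 cluster were tested. MMP10 and MMP12 passed the filter on low counts only through the shControl libraries, where they are high, and MMP3 had 2 and 3 counts in control cells, so the number of these genes called is not read as a result. MMP1, the interstitial collagenase and the one of them with over 3 counts in each control library, had 80 and 68 counts in control, 9228 and 8617 in shControl, 4695 and 5266 in shMETTL3 and 6076 and 5348 in shMETTL14 libraries.

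The genes whose pattern was most like that of MMP14 over the 8 libraries, by Pearson correlation of log2 CPM among 6317 genes whose mean was no less than 50 counts, were NT5E (r = 0.992), WLS (r = 0.988) and GNG12-AS1 (r = 0.987). The counted spans of WLS and GNG12-AS1 overlap on opposite strands and can share reads, so they are not separate likenesses. NT5E had 342 and 398 counts in control, 1255 and 1250 in shControl, 1501 and 1543 in shMETTL3 and 505 and 647 in shMETTL14 libraries. For TIMP1, among 6316 genes without SYN1, which holds its reads, they were C3 (r = 0.995), SLC39A14 (r = 0.989) and CSF3 (r = 0.989). C3 had 29 and 28, 188 and 168, 104 and 80, and 334 and 217 counts in the same order. The points are the libraries themselves, with 2 per group and shared depth, so these values describe likeness over 4 groups and carry no test.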

How the data were processed

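Nascent RNA of 8 IMR90 libraries (4 groups of 2) was counted per gene. The deposited values are raw counts, made by the authors with HOMER over whole gene bodies of hg19, introns included, with no normalization and replicates kept apart. The submitters' processing notes name STAR and deepTools 3.3. The file header gives an option for 1 strand, but host genes hold the reads of genes inside them on the opposite strand. Drosophila spike-in nuclei were added, and spike-in counts were not used here. RPKM values were computed from the counts, the file's gene lengths and TMM-scaled library sizes.

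Groups came from the sample titles. Genes kept by filterByExpr (minimum count of 10) were fitted over all 4 groups in edgeR 4.0.16 (R 4.3.3, limma 3.58.1) with TMM and the quasi-likelihood test, and called at a Benjamini-Hochberg adjusted p below 0.05 over the 12844 genes tested. The standard error is the log2 fold change over the square root of F. The alternatives were DESeq2 1.42.0, other scalings, filters and thresholds, fits of the 2 groups alone, a replicate block, leaving out each library, and subtracting inside genes. Same-numbered libraries did not deviate together (correlations of -0.045 to 0.076 between groups), and nothing in the labels pairs them. The fit was tested on simulated data.

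All 10 genes are named, with genes of the lists called at a mean of at least 50 counts, genes overlapping a member, and the 3 tested genes most like the top enzyme and the top inhibitor. The genes and lists were chosen with earlier results of these data known. Counts are of reads without molecular identifiers, so they are not counts of molecules. The standard errors and p-values take in the spread between libraries as well as counting error. Figures were drawn with matplotlib 3.10.9.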

Additional observations from a re-analysis of the deposited data

Results flagged for a closer look

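For 5 rows the effects of the 2 knockdowns differed by the direct edgeR test of shMETTL14 minus shMETTL3 in senescent cells. On the log2 scale the difference was -1.05 for MMP14 (adjusted p = 3.7e-06), 1.75 for MMP19 (adjusted p = 0.0046, but 1.42 and 0.1 without shMETTL14 replicate 1), 1.34 for TIMP1 (adjusted p = 1.7e-07) and 1.64 for TIMP3 (adjusted p = 4.6e-09). The value of 1.34 for SYN1 (adjusted p = 1.7e-07) comes from the reads of TIMP1.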

How the results depend on the processing

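Over 20 alternatives, 222 of 237 values kept the main result, that is a count of genes called within 1.5 times the main count or the same place in the order of levels. After shMETTL3, 2 rows were higher and 1 lower with library size alone, 0 higher and 1 lower when a log2 fold change of 1 or more in size was also asked for (by unadjusted p alone, 1 and 6), and 0 to 1 were higher when 1 library was left out. After shMETTL14, 1 was higher at an adjusted p below 0.01 or with the fold limit, and 1 to 3 without 1 library. Between the knockdowns, 3 were lower with library size alone and 1 to 2 without 1 library. With the replicate block the counts were those of the main fit in every comparison, such as 4 higher and 3 lower in senescent shControl cells. The reversed values were all of genes not called, except TIMP2 after shMETTL3, at 0.17 with library size alone. With that scaling, MMP2 and MMP19 in senescent shControl cells stood at -0.31 and -0.20, TIMP3 after shMETTL3 at 0.39, MMP19 after shMETTL14 at 0.22 and TIMP2 between the knockdowns at -0.21. MMP14 after shMETTL3, near 0, was at -0.018 with the upper quartile, -0.0079 without a filter, -0.022 with at least 10 counts in every library, -0.020 with the 2 groups alone, and -0.21 to 0.15 without 1 library. Without 1 library, the ranges that crossed 0 were -0.52 to 1.78 (MMP11) and -0.46 to 0.12 (MMP19) after shMETTL14, -0.50 to 0.10 (MMP2), -0.047 to 0.18 (TIMP2) and -0.44 to 0.026 (RECK) between the knockdowns, -0.22 to 1.23 for MMP11 in shMETTL3 cells against control, and -1.22 to 0.23 (MMP11) and -0.14 to 0.42 (MMP19) in shMETTL14 cells against control. The cause of these changes was not tested. Leaving out 1 library leaves its group with 1, assumed to vary like the others. The order of levels did not change with the library size without ribosomal RNA rows. Depth limits MMP11 and MMP19, with means of 5.75 and 19.1 counts per library.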
